A study of Rattus norvegicus with 6 samples.

Results

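The calponin and transgelin family was followed in cultured vascular smooth muscle (VSM) cells as 5 genes, Cnn1, Cnn2, Cnn3, Tagln and Tagln2, taken by symbol from 14475 genes with counts. Each symbol matched 1 row, so 5 of 5 members were measured. The VSM cells came from the soleus feed artery (SFA), which supplies the soleus muscle, of male Fischer 344 rats. There were 3 libraries from young rats aged 4 months and 3 libraries from old rats aged 24 months, and the labels name no treatment or genetic change. All cells were grown in serum before RNA was taken, so the values describe cultures and not the artery wall, and the sources used here do not give the number of passages. The labels do not tie a library to an animal.

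Calponins and transgelins are small proteins that bind actin filaments and carry a single calponin homology (CH) domain. Calponin 1, encoded by Cnn1, sits on the thin filaments of smooth muscle and restrains the myosin ATPase, and transgelin (SM22α), encoded by Tagln, bundles actin in the same cells. Both are used as markers of contractile smooth muscle and are classical targets of serum response factor (SRF) and its coactivator myocardin. Calponin 2 (Cnn2), calponin 3 (Cnn3) and transgelin 2 (Tagln2) are made in many cell types, where they act on the actin cytoskeleton. The comparison of interest was therefore old against young VSM cells for each gene, and the smooth muscle paralogs Cnn1 and Tagln against the broadly expressed ones.

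Total counts per library ranged from 44235674 to 59700887. Levels are given as CPM, counts per 1000000 counts of a library size corrected with TMM factors of 0.958 to 1.04. They are compared within a gene and not between genes, since no transcript lengths were used. The contractile identity of the cultures was checked on 8 smooth muscle genes outside the family, Acta2, Myh11, Des, Lmod1, Smtn, Myocd, Cald1 and Mylk. Their summed level lay between 9950 and 18190 CPM in young and between 3911 and 5547 CPM in old libraries. Acta2 and Cald1 made up most of this sum in each library. All 8 genes had a lower level in old. Myh11 went from 1131 ± 501 CPM in young to 134 ± 82.4 CPM in old (SD, n = 3 each). Des, which encodes the filament protein desmin, was at 1.98 ± 0.876 CPM in young and 1.84 ± 1.34 CPM in old (SD, n = 3 each) and hence close to the lower end of the table in both groups.

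In old VSM cells the smooth muscle paralogs were far lower than in young cells, with a young level 5.88-fold higher for Cnn1 and 2.90-fold higher for Tagln. The broadly expressed paralogs differed less, by 1.55-fold for Cnn2 and 1.49-fold for Tagln2. The mean of Cnn3 in old was 97.6% of that in young. In bulk cultures, fewer contractile cells and less RNA of these genes per cell cannot be told apart.

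Cnn1 (ENSRNOG00000027736) had 407, 729 and 837 CPM in young replicates 1, 2 and 3, and 137, 135 and 64.1 CPM in old replicates 1, 2 and 3. All old libraries lay below all young libraries, and the lowest young library was 2.97 times the highest old one. The libraries of a group also differed, by 2.06-fold between the highest and the lowest young library and by 2.14-fold between those of old. The means were 658 ± 224 CPM in young and 112 ± 41.4 CPM in old (SD, n = 3 each). The quasi-likelihood test of edgeR put the log2 fold change at -2.56 ± 0.40 (SE), with a 95% interval of -3.51 to -1.60, and its adjusted p of 0.0561 missed the threshold of 0.05.

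Tagln (ENSRNOG00000017628) had 4785, 6220 and 7436 CPM in the young libraries and 2858, 1747 and 1753 CPM in the old libraries. Again the groups were separate, and old replicate 1 stood nearest to the young libraries. Its means were 6147 ± 1327 CPM and 2119 ± 640 CPM (SD, n = 3 each). In edgeR this was a log2 fold change of -1.54 ± 0.29 (SE), with a 95% interval of -2.23 to -0.84 and an adjusted p of 0.0697.

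Among the broadly expressed paralogs, Cnn2 (ENSRNOG00000043044) had 486, 521 and 567 CPM in young and 407, 307 and 304 CPM in old libraries. The groups were separate, and the young libraries varied by 7.73% and the old by 17.3% of their mean. For Cnn2 edgeR gave a log2 fold change of -0.63 ± 0.15 (SE), a 95% interval of -0.99 to -0.26 and an adjusted p of 0.105. Tagln2 (ENSRNOG00000008301) had 853, 898 and 831 CPM in young and 771, 585 and 381 CPM in old libraries. Here the spread sat on the old side. The old libraries varied by 33.7% of their mean against 3.94% in young, and old replicate 1 lay close to the lowest young library. For Tagln2 edgeR gave a log2 fold change of -0.57 ± 0.25 (SE), a 95% interval of -1.18 to 0.04 and an adjusted p of 0.237.

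Cnn3 (ENSRNOG00000011559) was the member whose groups overlapped. Young libraries had 358, 418 and 527 CPM and old libraries 455, 411 and 405 CPM, so that the lowest and the highest value were both young. edgeR put its log2 fold change at -0.04 ± 0.16 (SE) with an adjusted p of 0.911, and the 95% interval of -0.43 to 0.36 leaves room for an old level between 74.5% and 128% of the young level. Tagln3, the neuronal relative that is not among the 5 members, had 16, 18 and 24 counts in young and 16, 24 and 18 counts in old libraries, near the lower limit of the table.

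**Figure D1:**
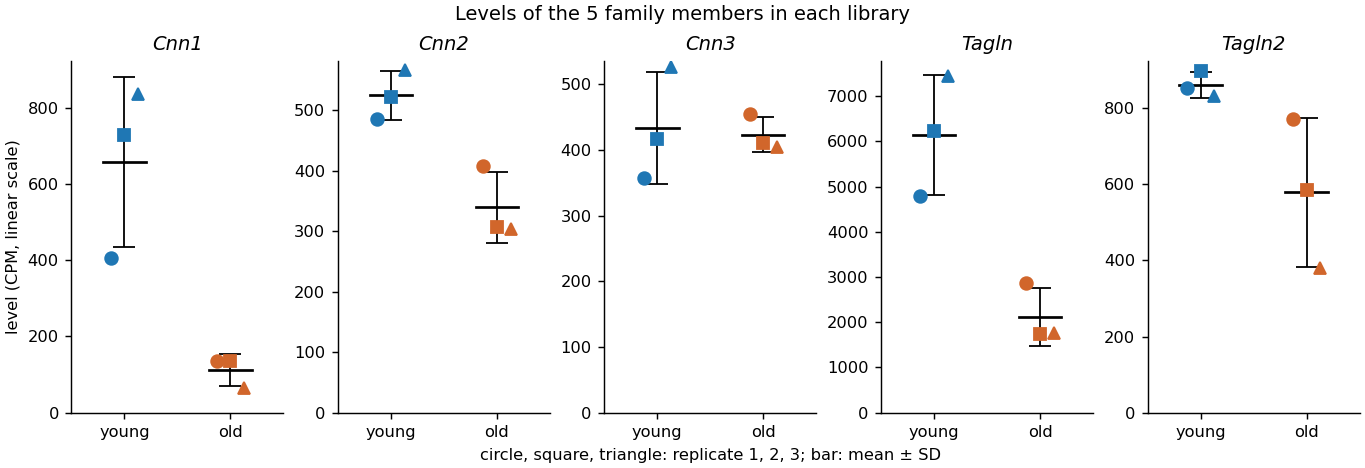
CPM on linear axes that start at 0 for each member, in the 3 young (blue) and 3 old (orange) libraries, with symbols for the replicate and black bars for the mean ± SD. Cnn1 and Tagln show the widest gaps between the groups, and the groups of Cnn3 overlap.

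Differentially expressed genes (DEGs) had to pass 0.05 on the adjusted p and differ by 1 or more on the log2 scale. By edgeR 0 of the 5 members met this, where 0.00691% of all genes did, and 3 members (Cnn1, Cnn2 and Tagln) had an unadjusted p under 0.05 with a lower level in old, as did 11.5% of all genes. limma-voom called 0 members, as it did 0% of all genes, and 3 members had an unadjusted p under 0.05 with a lower level in old, against 12.6% of all genes. The DESeq2 Wald test, which is the test of the study, called 2 members as downregulated, Cnn1 (adjusted p = 4.93e-09) and Tagln (adjusted p = 2.85e-06), against a background of 3.31% of all genes. With the adjusted p alone and no threshold on the fold, DESeq2 gave 3 members as lower in old, against 6.61% of all genes, the third being Cnn2 (adjusted p = 0.00479). Tagln2 (adjusted p = 0.145) and Cnn3 (adjusted p = 0.913) did not pass in DESeq2. The 3 old libraries were all below the 3 young libraries for 4 of the 5 members, compared with 14.7% of all genes. For these 4 members the two-sided exact permutation test of log2 CPM gave p = 0.1, the smallest that 3 against 3 libraries allow, and for Cnn3 it gave p = 0.8.

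Set among all genes, only 0.836% had a lower log2 fold change than Cnn1 and 2.63% a lower one than Tagln. For Cnn2 this share was 11.1%, for Tagln2 12.3% and for Cnn3 43.9%. The median log2 fold change was -0.63 over the members and 0.02 over all genes.

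**Figure D2:**
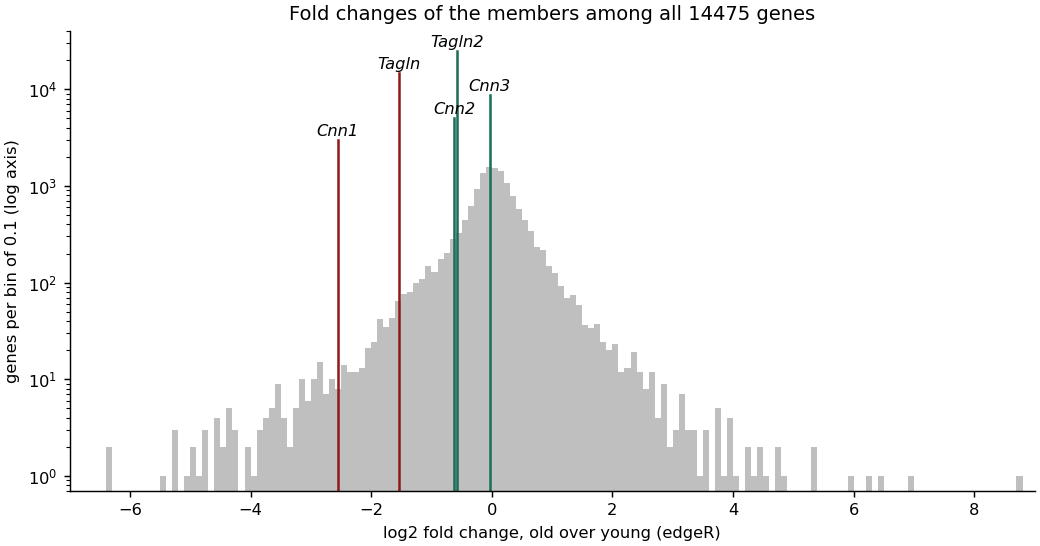
Histogram of the edgeR log2 fold changes of all genes (log axis for the number of genes per bin of 0.1), with vertical lines at the smooth muscle paralogs Cnn1 and Tagln (red) and the broadly expressed Cnn2, Cnn3 and Tagln2 (green). Line heights carry no value. Cnn1 at -2.56 lies in the lower tail, and Cnn3 at -0.04 lies at the peak.

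Leaving out single libraries changed calls in edgeR. Of the old libraries, old replicate 1 had the highest CPM of each member, although for Cnn1 it was close to old replicate 2 (137 and 135 CPM), and without TMM or RLE scaling old replicate 2 was the higher (136 and 139 CPM). Without that library edgeR called 2 members, Cnn1 (log2 fold change -2.73, adjusted p = 0.0371) and Tagln (log2 fold change -1.81, adjusted p = 0.0285), while 3.47% of all genes were then called as lower in old. The rise in calls ran through the whole table, from 1 gene to 732 genes in both directions. Leaving out each of the other libraries gave 0 members in edgeR. Over the 6 fits with a library left out, the log2 fold change of Cnn1 ranged from -2.81 to -2.28, that of Tagln from -1.81 to -1.38 and that of Cnn2 from -0.78 to -0.55. For Tagln2 it lay between -0.83 and -0.34, and the value nearest to 0 was the one without old replicate 3. Cnn3 changed its sign without young replicate 3, where the log2 fold change was 0.13. In DESeq2, Cnn1 and Tagln were called with any library left out.

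**Figure D3:**
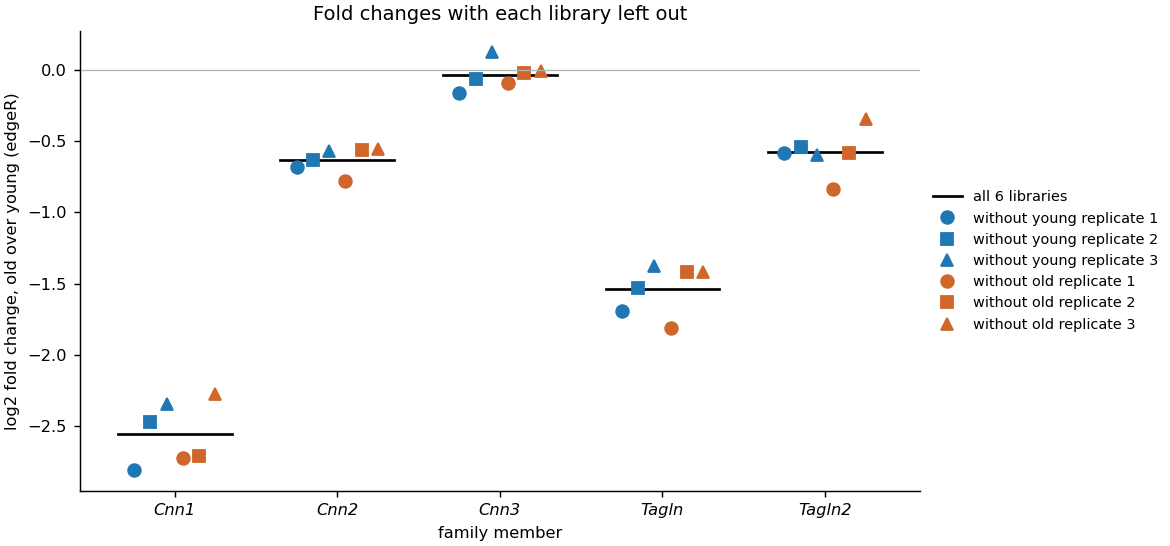
Log2 fold change (edgeR, old over young) of each member with all 6 libraries (black line) and with each library left out (blue for young, orange for old, symbol for the replicate). The order of the members, Cnn1 lowest, then Tagln, then Cnn2 and Tagln2, with Cnn3 near 0, is seen with all libraries, and Tagln2 lies below Cnn2 when old replicate 1, old replicate 2 or young replicate 3 is left out.

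To set the paralogs against each other, the ratio of their counts was taken within each library, where depth and scaling between libraries cancel. For every 100 counts of Cnn2 there were 83.7, 140 and 148 counts of Cnn1 in the young libraries and 33.6, 43.8 and 21.1 in the old libraries. All old ratios were below all young ones, and the mean log2 ratio differed by -1.93 (standard error 0.40). Against Cnn3, the counts of Cnn1 per 100 were 114, 175 and 159 in young and 30.1, 32.8 and 15.8 in old, a log2 difference of -2.55 (standard error 0.38). For transgelins, Tagln had 561, 693 and 895 counts per 100 of Tagln2 in young and 371, 299 and 461 in old libraries. The log2 difference of this ratio was -0.92 (standard error 0.27), smaller than for the calponins but still without overlap.

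For each of these 3 ratios the two-sided exact permutation test gave p = 0.1 (0.1 after Benjamini-Hochberg adjustment over the 3), the smallest value that 20 regroupings of 3 against 3 libraries allow, so that no ratio could pass 0.05. Over the 9 pairs of an old and a young library, the log2 difference nearest to 0 was -0.94 for Cnn1 to Cnn2, -1.79 for Cnn1 to Cnn3 and -0.28 for Tagln to Tagln2.

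Further ratios between members were chosen with the values already seen. Within the broadly expressed paralogs, Cnn2 had 136, 125 and 108 counts per 100 of Cnn3 in young and 89.6, 74.8 and 75.0 in old, which was a log2 difference of -0.62 (standard error 0.13) without overlap. Cnn2 against Tagln2 overlapped, at 56.9, 58.1 and 68.2 per 100 in young and 52.9, 52.5 and 79.9 in old (log2 difference -0.0080, standard error 0.22). Within the smooth muscle paralogs, Cnn1 had 8.50, 11.7 and 11.3 counts per 100 of Tagln in young and 4.79, 7.70 and 3.66 in old, a log2 difference of -1.02 (standard error 0.35). Cnn1 was thus lower relative to Tagln in each old library than in each young one. In exact permutation tests adjusted over all 8 ratios computed, those without overlap had an adjusted p of 0.133.

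**Figure D4:**
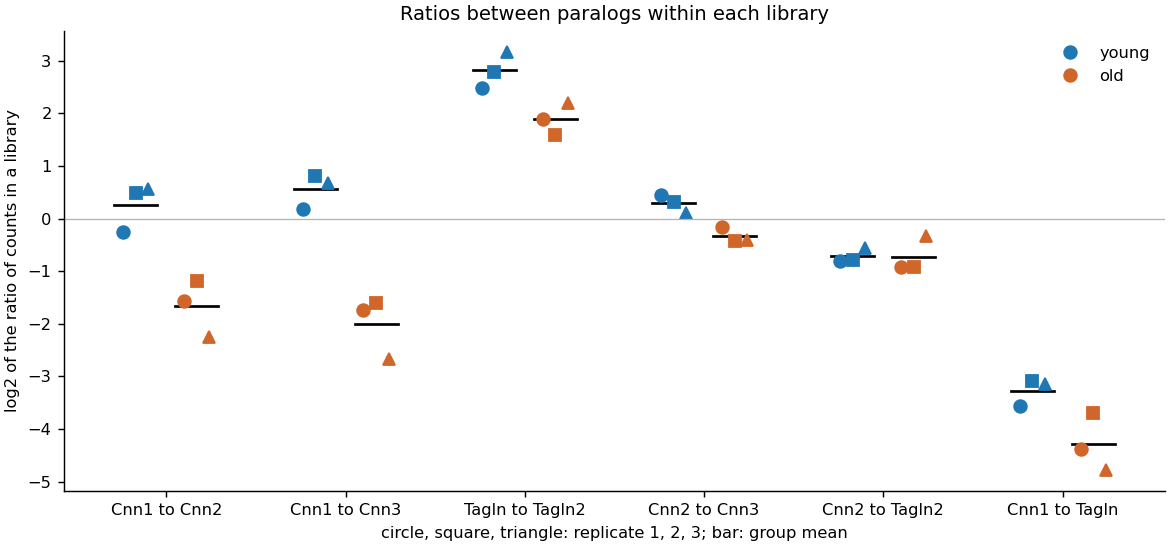
Log2 of the ratio of counts of 2 members within each library, for 6 ratios, with young libraries in blue, old in orange, symbols for the replicate and black bars for the group mean. Heights of different ratios are not comparable, since no transcript lengths were used. The old libraries lie below the young ones in all ratios shown except Cnn2 to Tagln2.

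SRF binds a sequence called the CArG box, which many smooth muscle genes carry near their promoters. RefSeq windows of the 250 bases before the start site (assembly GRCr8) were at hand for 4 of the 5 members, and not for Tagln. They are shown for the calponins, since the values of these paralogs differed most from each other. Capitals mark the CArG box, searched on both strands, which overlapped none of the other motifs named below. The windows are Cnn1 chr8:28908187-28908436 (plus strand), Cnn2 chr7:10370313-10370562 (minus strand) and Cnn3 chr2:212203411-212203660 (plus strand), each written 5′ to 3′ along the gene.
Cnn1: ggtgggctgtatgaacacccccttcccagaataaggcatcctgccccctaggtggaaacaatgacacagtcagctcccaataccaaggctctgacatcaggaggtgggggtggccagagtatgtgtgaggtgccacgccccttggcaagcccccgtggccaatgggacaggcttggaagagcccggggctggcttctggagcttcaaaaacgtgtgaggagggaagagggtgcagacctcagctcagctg
Cnn2: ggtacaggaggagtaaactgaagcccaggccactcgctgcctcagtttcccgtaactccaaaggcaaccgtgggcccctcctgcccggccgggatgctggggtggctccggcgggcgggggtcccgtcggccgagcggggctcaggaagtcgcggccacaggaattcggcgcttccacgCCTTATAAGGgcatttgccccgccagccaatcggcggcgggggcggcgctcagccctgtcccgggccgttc
Cnn3: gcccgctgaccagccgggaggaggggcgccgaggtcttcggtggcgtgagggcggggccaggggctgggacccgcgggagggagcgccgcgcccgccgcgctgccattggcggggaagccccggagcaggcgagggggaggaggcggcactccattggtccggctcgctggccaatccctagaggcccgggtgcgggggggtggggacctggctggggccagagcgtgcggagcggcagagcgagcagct

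Cnn2 held the only full CArG box among the 4 windows, CCTTATAAGG at positions -71 to -62 from the start site, where 1.5% of 33469 windows of this length in RefSeq held one. A box with 1 base off was in 17.7% of all windows and in none of the 4. The MCAT motif CATTCC, which TEAD factors bind, occurred 2 times in the window of Tagln2, at -170 to -165 and at -132 to -127, in none of the calponin windows and in 12.1% of all windows. The GC box GGGCGG was present in the windows of Cnn2, Cnn3 and Tagln2 (30.5% of all windows), and CCAAT in those of Cnn1, Cnn2 and Cnn3 (34.0% of all windows). A match is a string of letters and not a measured site, and a box outside the 250 bases would not be seen. The promoter of Tagln was not searched.

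Other genes of the contractile apparatus gave a setting for the 2 smooth muscle paralogs. In a list of 12 partners on the actin and myosin filaments, 12 had a lower level in old cells, and their median log2 fold change was -1.67 against 0.02 over all genes. The old libraries were all below the young for 11 of the 12, compared with 14.7% of all genes. edgeR called 0, with 11 lower in old at an unadjusted p under 0.05, as were 11.5% of all genes. DESeq2 called 8, all downregulated, against 3.31% of all genes. Cnn1 was within the range of the strongest of these genes, between Myh11 (smooth muscle myosin heavy chain, log2 fold change -3.08, standard error 0.55) and Acta2 (SM α-actin, -2.27, standard error 0.38). Tagln was close to the leiomodin gene Lmod1 (-1.64, standard error 0.28) and to the tropomyosin gene Tpm1 (-1.40, standard error 0.25). Smtn, the gene of smoothelin, which also has a CH domain, differed about as much as Cnn2 and Tagln2 (-0.55, standard error 0.20). The lowest value was that of Actg2, the enteric smooth muscle actin, at -3.95 (standard error 0.84), where young replicate 3 had 377 CPM against 52.4 and 66.7 CPM in the other young libraries. Des had the value nearest to 0 (-0.11, standard error 0.76).

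Of 13 regulators around SRF and myocardin, 8 had a lower and 5 a higher level in old cells, and the median log2 fold change was -0.24. DESeq2 called 3 as downregulated and 1 as upregulated, where 3.31% of all genes were called as downregulated and 326 of 14475 as upregulated. Myocd, which encodes myocardin, had 60.5 ± 43.0 CPM in young and 7.22 ± 3.59 CPM in old (SD, n = 3 each), and its log2 fold change of -3.07 had an adjusted p of 0.0823 in edgeR and 7.18e-06 in DESeq2. Srf itself was at 74.9 ± 10.9 CPM in young and 37.9 ± 13.1 CPM in old (SD, n = 3 each), and its log2 fold change of -0.98 stayed just short of the threshold on the fold (adjusted p = 0.111 from edgeR and 0.00735 from DESeq2). The LIM protein genes Fhl2 (-1.15) and Csrp1 (-1.10) were the other genes that DESeq2 called as lower. The gene called as higher was Klf4, a factor known to repress contractile genes, with 53.2 ± 11.1 CPM in young and 124 ± 11.0 CPM in old (SD, n = 3 each) and a log2 fold change of 1.23, with an adjusted p of 0.0545 in edgeR and 1.51e-07 in DESeq2. The coactivator gene Mrtfa went from 83.4 ± 1.02 CPM in young to 56.9 ± 5.74 CPM in old (SD, n = 3 each), and its log2 fold change of -0.55 was under the threshold on the fold, with an adjusted p of 0.0648 in edgeR and 1.47e-04 in DESeq2. For its relative Mrtfb the log2 fold change was 0.13, with an adjusted p of 0.6004 in edgeR.

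**Figure D5:**
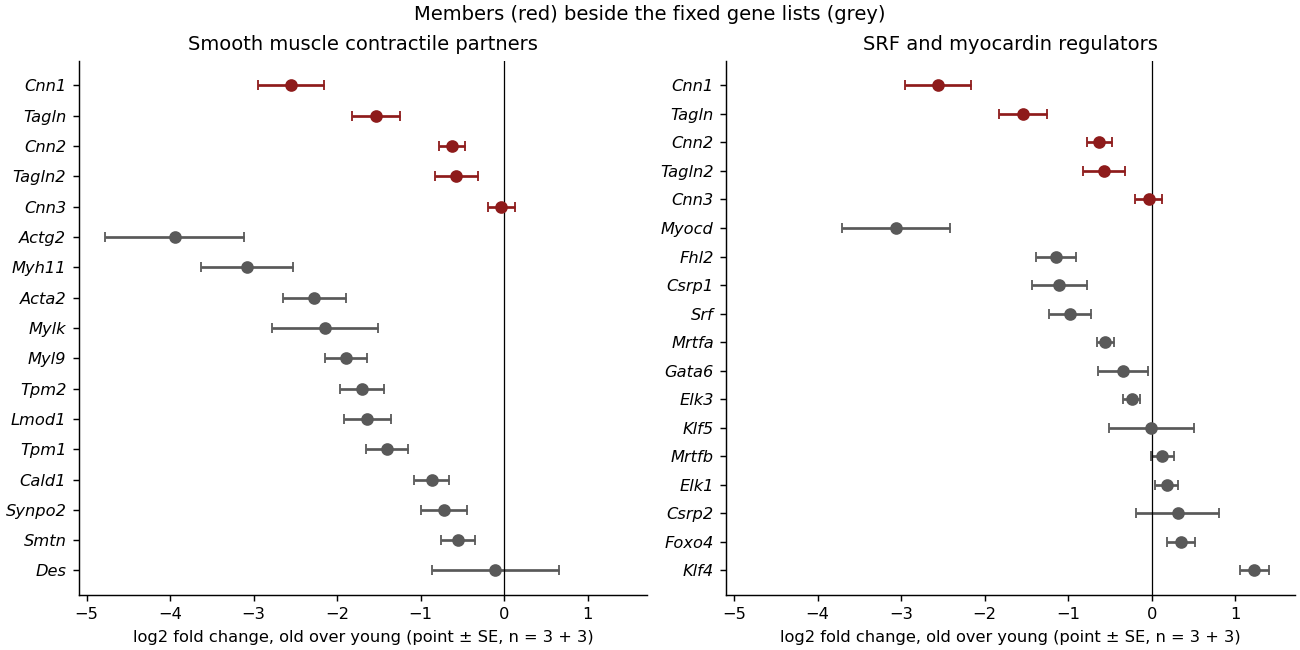
Log2 fold change (edgeR, old over young, point ± standard error, n = 3 in each group) of the 5 members in red, repeated in both panels, beside 12 smooth muscle contractile partners and 13 SRF and myocardin regulators in grey. All partners lie left of 0, whereas the regulators run from Myocd at -3.07 to Klf4 at 1.23.

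The CH domain is shared with many actin regulators outside the family, and the medians of these genes were nearer to Cnn2 and Tagln2 than to Cnn1. Of 31 listed genes with a single CH domain, 27 were measured, 20 with a lower and 7 with a higher level in old cells and a median log2 fold change of -0.42. DESeq2 called 2 of them as lower and 1 as higher, where it called 3.31% of all genes as lower and 326 of 14475 as higher. The widest differences were those of Limch1 (2.68, standard error 0.79) and Iqgap3 (-1.85, standard error 0.63), and Specc1l had the smallest (0.0061, standard error 0.11). Of 23 listed genes with a tandem pair of CH domains, as in α-actinins and filamins, 21 were measured, 17 with a lower and 4 with a higher level in old and a median of -0.41. DESeq2 called 3, all lower, against the same 3.31% of all genes. Lcp1 (-2.53, standard error 0.82) and the α-actinin gene Actn1 (-1.45, standard error 0.26) differed most, and Utrn, which encodes utrophin, differed least (-0.0011, standard error 0.18). In both lists edgeR called 0 genes, with 14 and 9 at an unadjusted p under 0.05.

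Markers of other cells were read beside these values. Of 8 fibroblast markers 7 had a higher level in old cells, and the median log2 fold change was 1.72. DESeq2 called 3 of them as upregulated (Dcn, Clec3b and Col14a1), where it called 326 of all 14475 genes as upregulated. The summed level of the 8 was 731 to 1262 CPM in young and 1603 to 2555 CPM in old libraries. Mfap5, the 1 marker with a lower level in old (means of 607 and 544 CPM), was the largest part in each young library. Col14a1 was the largest part in each old library (means of 148 CPM in young and 800 CPM in old). Dcn varied widely in old, at 26.0, 411 and 119 CPM. By library the sums were 1262, 1147 and 731 CPM in young replicates 1, 2 and 3 and 1603, 2555 and 2421 CPM in old replicates 1, 2 and 3. Tagln ran in the opposite order to these sums within both groups, but in old this rested on 1747 and 1753 CPM in replicates 2 and 3. Without TMM or RLE scaling old replicate 2 was the higher of these for Tagln (1808 and 1737 CPM). Cnn1, Cnn2 and Cnn3 ran in the opposite order within the young but not within the old group, and Tagln2 did so in neither. Endothelial markers (5 of 8 measured) summed to 4.54 to 15.3 CPM in young and 12.7 to 18.3 CPM in old libraries. Leukocyte markers (3 of 8 measured) summed to 5.13 to 16.0 CPM in young and 10.4 to 16.8 CPM in old. Pecam1, Vwf and Cd68 were each below 1 CPM on average in both groups. Tek made up most of the endothelial sum, with means of 8.30 CPM in young and 14.2 CPM in old. Cd14 made up most of the leukocyte sum, with means of 8.35 CPM in young and 10.9 CPM in old. The groups overlapped for Tek and for Cd14. The sum of the pericyte markers (4 of 7 measured) overlapped, at 904 to 1373 CPM in young and 667 to 1520 CPM in old, and Pdgfrb, which made up most of it, had a log2 fold change of 0.32. Cspg4 went the other way from 320 ± 105 to 121 ± 36.6 CPM (SD, n = 3 each) without overlap, a value that DESeq2 called as lower (log2 fold change -1.40 in edgeR, adjusted p = 3.41e-04 in DESeq2). Notch3 had a log2 fold change of -2.83 but overlapping groups. Schwann cell markers (3 of 6 measured) overlapped at 12.5 to 75.2 CPM and 54.3 to 85.4 CPM. The 3 of 10 skeletal muscle markers measured did not go one way. Acta1 went from 156 ± 92.8 CPM in young to 13.7 ± 6.70 CPM in old (SD, n = 3 each) and was called as lower by DESeq2, Tnnt3 went from 10.7 ± 2.61 to 20.2 ± 8.99 CPM (SD, n = 3 each) with overlapping groups, and Tnnt1 stayed below 1 CPM in each library. The sum of the 3 was 85.4 to 264 CPM in young and 28.2 to 46.3 CPM in old. The part of these cells in the differences of the family was not tested.

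Genes with a pattern like that of a member were sought over the 6 libraries, by Pearson's r of log2 CPM among 8568 genes with a mean of at least 10 CPM. These r describe 6 points that share the same split by age, and 489 genes had an r above 0.9 with Cnn1, 717 with Tagln and 45 with Cnn3. The nearest to Cnn1 were Mmgt1 (r = 0.999), Cd38 (0.998) and Selenot (0.997), and of these Cd38 had the widest difference (log2 fold change -1.39) and Selenot the smallest (-0.13). The nearest to Tagln were Dnajb4 (0.998), Cited2 (0.998) and Ccdc126 (0.997), and Dnajb4 also matched it in size (log2 fold change -1.53). Cnn2 was followed by Vrk2, Kank1 and Riok2 (r of 0.999, 0.997 and 0.996), and Cnn3 by Wdr11, Eif4g2 and Capn7 (0.998, 0.981 and 0.972).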

How the data were processed

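RNA of cultured VSM cells from the SFA of young and old rats (3 libraries each) was prepared as stranded polyA libraries and sequenced as read pairs. The authors deposited raw counts, whole numbers per gene without normalization. Per the submitters' processing notes and the methods, trimming used Cutadapt 3.5 and Trim Galore 0.6.7, alignment STAR 2.7.10b on the rat assembly Rnor 6.0, and counting featureCounts (Subread 2.0.8) on RefSeq gene models, although the table gives Ensembl identifiers. How strand and reads matching several genes were handled is not given, so reads shared between close paralogs are uncertain. Each gene had at least 10 counts in 3 or more libraries, as a filter on low counts would leave. From 68.7% to 71.1% of the counts from 1 to 19 were even in each library, which counting by mate would give. The total counts of each library also exceeded the number of reads per sample that the study states. Whether both mates were counted is not stated, so halved counts were also run.

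All genes were fitted in R 4.3.3 with edgeR 4.0.16 (TMM, quasi-likelihood test, Benjamini-Hochberg adjustment over all genes, young as reference, no covariates). Alternatives were DESeq2 1.42.0, limma-voom (limma 3.58.1), other scalings, filters and thresholds, a replicate block and each library left out. The standard error is the absolute log2 fold change over the square root of F. Intervals are at 95%. The likeness used log2 (CPM + 0.5). The genes most like Tagln2 are not reported here. The edgeR, DESeq2 and limma-voom fits of all 6 libraries were tested on simulated data, and the other alternatives were not. The members and gene lists were chosen with earlier results of these data known. Named genes were the members, any gene of the partner and regulator lists, and otherwise the genes of a list with the largest, second largest and smallest change above a mean of 1 CPM, plus markers and DESeq2 calls of 5 or fewer, named after their values were seen. Of 2 rows named Mical2, the more abundant was used. p-values measure the spread between these libraries.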

Additional observations from a re-analysis of the deposited data

How the results depend on the processing

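Of the alternatives, DESeq2 changed the count of members called from 0 to 2 (Cnn1 and Tagln), or to 3 without a threshold on the fold, and an adjusted p under 0.1 also gave 2 in edgeR. With each library left out the count ranged from 0 to 2 in edgeR and was 2 throughout in DESeq2, which was added after the data had been examined. In DESeq2 the log2 fold change was -2.56 for Cnn1 and -1.54 for Tagln, and with libraries left out it ranged from -2.82 to -2.29 for Cnn1 and from -1.82 to -1.38 for Tagln, against -2.81 to -2.28 and -1.81 to -1.38 in edgeR. Cnn3 reversed without young replicate 3 (0.13 in edgeR, 0.12 in DESeq2; range -0.16 to 0.13 in edgeR and -0.17 to 0.12 in DESeq2). The ratio of Cnn2 to Tagln2 ranged from -0.21 to 0.094 and that of Cnn1 to Acta2 from -0.70 to 0.0053. The 3 ratios of smooth muscle to broadly expressed paralogs kept their sign, as did the count of 4 members with separate groups, under each alternative run. Over all genes edgeR called 1 gene, against 65 with a CPM filter, 732 without old replicate 1 and 0 to 5 without any other library, while DESeq2 called 805, or 551 to 1377 with a library left out. Why these values changed was not tested.

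Same-numbered libraries were not paired by the labels, and their deviations correlated at 0.0632, 0.322 and 0.313, not all above 0.1. The highest correlation was between libraries of unlike number, young replicate 1 and old replicate 2 (0.354). Young replicate 3 and old replicate 1 also correlated more (0.0990) than the libraries numbered 1. With a replicate block edgeR called 0 members, and the log2 fold changes were -2.57 for Cnn1 (adjusted p = 0.103) and -1.56 for Tagln (adjusted p = 0.119).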

Other observations

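The 5 members together took 0.703%, 0.885% and 0.977% of all counts in young replicates 1, 2 and 3 and 0.458%, 0.330% and 0.288% in old replicates 1, 2 and 3. Tagln supplied most of them, with 69.5% to 72.9% of the family's counts in young and 54.9% to 61.8% in old libraries, while the share of Cnn3 was 4.75% to 5.20% in young and 9.83% to 14.0% in old.

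Against Acta2, the gene of SM α-actin, the smooth muscle paralogs did not behave alike. Tagln had 96.2, 82.0 and 71.6 counts per 100 of Acta2 in young and 129.8, 155.2 and 123.3 in old libraries, so that every old library had a higher ratio than every young one (log2 difference 0.71, standard error 0.16, exact permutation p = 0.1, which is the smallest possible, and 0.133 adjusted over 8 ratios). Cnn1 had 8.18, 9.61 and 8.07 counts per 100 of Acta2 in young and 6.22, 11.95 and 4.51 in old libraries, which overlapped (log2 difference -0.31, standard error 0.42, exact permutation p = 0.5, and 0.571 adjusted over 8 ratios). Both ratios were chosen after the data had been examined.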
